A study of Mus musculus with 12 samples.

Results

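RNA sequencing covered M1-activated bone marrow-derived macrophages (BM-Mɸs) of 6 mice labelled LysMCre/ErbB4-floxed (KO, the ErbB4myeKO mice of the study) and 6 littermates labelled ErbB4-floxed (WT, the ErbB4FF mice), with 1 of each from 6 litters. The values described here are those of the STAT transcription factors. The members were the rows whose gene symbol is Stat2, Stat3, Stat4, Stat5a, Stat5b or Stat6, which gave 6 of the 22243 genes and 9 of the 28808 transcripts of the deposited table. All mice were C57Bl/6 and carried floxed ErbB4 alleles, and the KO mice also carried a Cre recombinase driven by the lysozyme M gene Lyz2, which is active in macrophages and neutrophils. The marrow was cultured in CMG14-12 conditioned medium, a source of M-CSF, and every culture of both groups then received IFN-γ at 100 U/mL for 16 h and LPS at 100 ng/mL for 6 h. The controls carry no Cre by their labels, and no unstimulated culture is among the 12 libraries.

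STAT proteins wait in the cytoplasm until a cytokine receptor, through the Janus kinases bound to it, phosphorylates a tyrosine near their carboxyl end. They then pair, enter the nucleus and bind DNA, most of them at palindromic GAS sites, while STAT2 works mainly in a complex with IRF9 at interferon-stimulated response elements (ISRE). In macrophages STAT2 serves type I interferon, STAT3 serves IL-6 and IL-10, STAT4 serves IL-12 and type I interferon, STAT5a and STAT5b serve GM-CSF and IL-3, and STAT6 serves IL-4 and IL-13. What was measured is the mRNA of these factors, and neither protein nor phosphorylation.

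The 2 promoter windows of STAT genes that hold a match to the ISRE core are shown first. Each is the 250 bases before a RefSeq start site (GRCm38.p6) on the gene's own strand, with the match to the ISRE core (GAAA, any 2 bases, GAAA) in capitals. The Stat2 window lies at chr10:128270248-128270497 (+) and the Stat4 window, which precedes the second of 2 Stat4 start sites, at chr1:52007990-52008239 (+).
Stat2 promoter: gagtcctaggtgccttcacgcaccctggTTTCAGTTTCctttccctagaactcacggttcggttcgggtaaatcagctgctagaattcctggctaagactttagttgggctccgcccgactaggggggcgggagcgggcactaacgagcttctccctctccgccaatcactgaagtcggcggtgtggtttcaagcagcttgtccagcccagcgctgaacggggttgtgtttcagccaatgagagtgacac
Stat4 second promoter: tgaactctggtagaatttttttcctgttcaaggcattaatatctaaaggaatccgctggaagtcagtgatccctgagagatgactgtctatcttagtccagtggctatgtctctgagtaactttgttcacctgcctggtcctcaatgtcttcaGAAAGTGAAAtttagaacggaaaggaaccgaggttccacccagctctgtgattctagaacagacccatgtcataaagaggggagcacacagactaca

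Windows of 250 bases before and 50 bases after each RefSeq start were searched on both strands for the GAS letters TTCNNNGAA and for the ISRE core, whose matches can overlap. The 6 STAT genes have 9 such windows. The ISRE core was found in 2 of them, on the minus strand of the Stat2 window from base -222 and on the plus strand of the second Stat4 window from base -97, and 3.44% of all 32851 promoter windows hold it. The GAS letters were found in 0 of the 9 windows and in 8.30% of all windows. The second Stat4 start site lies next to the start of ENSMUST00000027277 (chr1:52008243), which held 3.45% of the gene's TPM. The main Stat4 transcript ENSMUST00000168302 (96.6%) starts at chr1:51987148, at the first start site, whose window holds no ISRE core. A match is a description of letters and was not tested as a binding site.

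Stat5a and Stat5b are neighbours and close copies of each other, so the sequence they share bears on how reads are assigned between them. On chromosome 11 of GRCm38, Stat5b (chr11:100780731-100850724, minus strand), Stat5a (chr11:100859351-100885169, plus strand) and Stat3 (chr11:100885098-100939540, minus strand) follow each other within 159 kb, and the ends of Stat5a and Stat3 overlap by 72 exon bases on opposite strands. Stat2 (chr10:128270559-128292849, plus strand) and Stat6 (chr10:127642986-127660957, plus strand) lie on chromosome 10, and Stat4 (chr1:51987148-52107189, plus strand) lies on chromosome 1. The coding sequences of Stat5a and Stat5b were 90.7% identical in a pairwise alignment, against 53.9% to 61.5% for the other 14 pairs of these genes. Their longest identical run was 324 bases of coding sequence, spread over 3 exon blocks in each gene (chr11:100874023-100874983 in Stat5a and chr11:100797741-100798701 in Stat5b). The last 240 bases of the run are printed once, from the GENCODE M21 transcripts, and are followed by the next 60 coding bases of each gene with the single base that differs in capitals.
Stat5a and Stat5b end of shared run: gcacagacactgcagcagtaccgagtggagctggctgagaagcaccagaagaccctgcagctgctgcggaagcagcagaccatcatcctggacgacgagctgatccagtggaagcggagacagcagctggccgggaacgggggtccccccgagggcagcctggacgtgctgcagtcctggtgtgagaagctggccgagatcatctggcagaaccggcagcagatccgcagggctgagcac
Stat5a next bases: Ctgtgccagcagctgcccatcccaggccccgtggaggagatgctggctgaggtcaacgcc
Stat5b next bases: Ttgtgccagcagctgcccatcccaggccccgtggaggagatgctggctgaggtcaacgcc

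Reads of 75 bases fit inside that run, so a read from it cannot be assigned to one gene by its letters. Of all 75-base windows, 7.76% of those of the main Stat5b transcript ENSMUST00000004143 and 10.6% of those of the main Stat5a transcript ENSMUST00000107356 occur unchanged in the other gene. The levels of Stat5a and Stat5b therefore depend in part on how kallisto divided shared reads. Of the 31-base words of the main Stat4 transcript, 34.8% also occur in Gm28177, an annotated gene without protein product that overlaps the 3′ part of Stat4, which has 0 rows in the table.

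The table gives TPM (transcripts scaled to a fixed total per library), in which a level is already set per base of transcript, and not read counts, so that depth per library is unknown. The deposited rows held 60.4% to 71.4% of all TPM in the libraries labelled KO and 59.0% to 74.7% in those labelled WT. All 8 macrophage markers were present, with summed levels from 2610 to 7374 TPM. The T and NK cell markers summed to at most 3.32 TPM in any library, with Cd4 the only one of 10 that averaged 1 TPM or more. Erbb4 averaged 0.58 ± 0.24 TPM in KO and 0.45 ± 0.13 TPM in WT (SD, n = 6), too low to check the labels. Lyz2, the gene that carries the Cre, was lower in the KO library by 0.81 to 1.20 on the log2 scale in litters 1 to 5 and higher by 1.43 in litter 6. Lyz1, the neighbouring lysozyme gene, looked at after its values were seen, turned in the same litter, with KO higher by 1.41 to 2.18 in litters 1 to 5 and lower by 0.94 in litter 6. Whether the 2 labels of litter 6 are exchanged could not be settled from the labels, and if they are, every KO to WT ratio of that litter has the opposite sign. Ratios without litter 6 are therefore given for the members, for the pathway genes described and for the counts and medians of their lists. They leave the litter out and do not turn it. Ratios with its labels exchanged would differ from these and were not computed. In bulk RNA, fewer cells that express a gene and less RNA per cell cannot be told apart.

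Stat3 was the most abundant of the 6 STAT genes in these macrophages, and Stat4 and Stat5b were the least. The median over the 12 libraries was 218 TPM for Stat3, 137 for Stat2, 63.8 for Stat6, 31.4 for Stat5a, 19.7 for Stat4 and 17.8 for Stat5b. Stat3 ranked 487th and Stat5b 2986th of the 8780 genes that averaged 1 TPM or more. Stat2 exceeded Stat6, and Stat6 exceeded Stat5a, in 12 of 12 libraries (exact permutation p = 0.0312 for each over the 6 litter means, two-sided, the smallest p that 6 litters allow). Stat3 exceeded Stat2 in 11 of 12 libraries (exact p = 0.0625) and Stat5a exceeded Stat4 in 10 of 12 (exact p = 0.0938). Stat4 and Stat5b had no stable order, with Stat4 the higher in 7 of 12 libraries (exact p = 0.938). As a share of the summed TPM of the 6 genes, Stat3 took 33.9% to 48.2%, Stat2 24.2% to 38.7% and Stat5b 3.09% to 4.70% over the libraries.

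**Figure D1:**
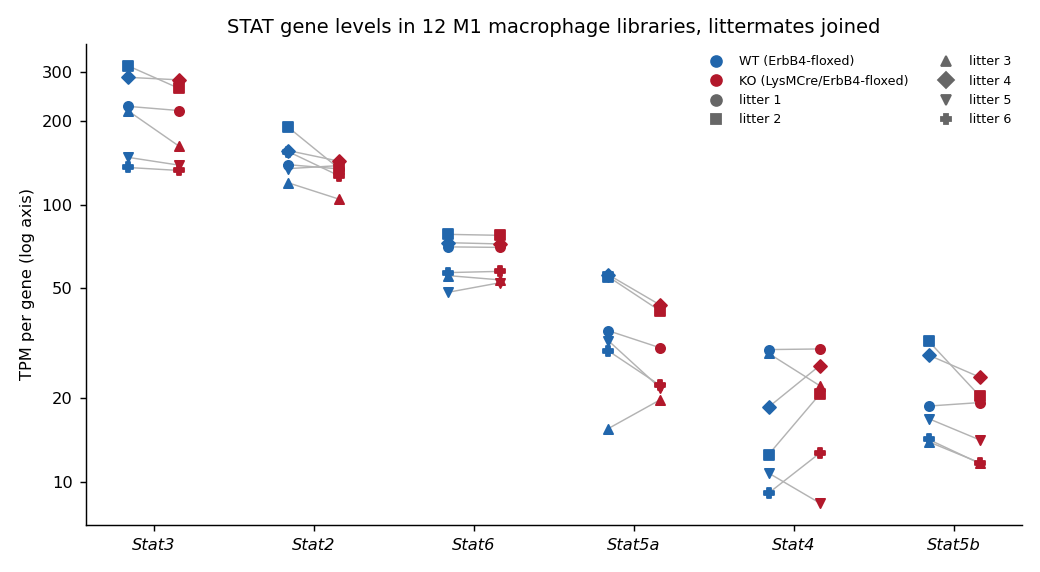
TPM of the 6 STAT genes in each library (log axis), with WT in blue, KO in red, 1 symbol per litter and grey lines joining littermates. Stat3 and Stat2 lie highest, Stat4 and Stat5b lowest, and the KO and WT points overlap for every gene.

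Levels spread more between litters than between the 2 genotype means. The highest litter mean exceeded the lowest 3.06-fold for Stat4, 2.76-fold for Stat5a, 2.14-fold for Stat3, 2.01-fold for Stat5b, 1.54-fold for Stat6 and 1.43-fold for Stat2. Litters 2 and 4 were the highest for 5 of these genes between them, and Stat4 was highest in litter 1. Genotypes were therefore compared within litters, as log2 ratios of TPM + 0.5 (KO to WT littermate), with limma over all 8780 genes and with an exact permutation over the 64 swaps of littermates.

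None of the 6 STAT genes differed between KO and WT after adjustment over all genes, with limma adjusted p of 0.603 for Stat2, Stat3, Stat5a and Stat5b, 0.778 for Stat4 and 0.971 for Stat6. The same was true of the whole table, as 0% of 8780 genes passed an adjusted p of 0.05 and 8.21% had an unadjusted p under 0.05. Before adjustment, 2 of the 6 STAT genes (Stat5b and Stat2) had a limma p under 0.05, both with the lower mean in KO, against 4.38% of all genes in that direction. Which members these were depended on the fit, as they were Stat5b and Stat3 with a covariate of Y-linked expression and Stat5b alone without the trend of the variance on abundance. The count was 0 without litter 2, without litter 4 and with no litter block. It was 1 without litter 1 and without litter 6, and 2 without litter 3 and without litter 5. Of the 6, 4 (Stat2, Stat3, Stat5a and Stat5b) were lower in KO in at least 5 of 6 litters, against 14.3% of all genes. Litter 6 stood at -0.29 for Stat2, -0.40 for Stat5a and -0.28 for Stat5b. If its labels are exchanged, only Stat3 of these would still be lower in at least 5 litters, and the share of all genes was not computed for that case. The KO and WT values of all 6 overlapped, as they did for nearly all genes (0.0456% did not overlap).

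Stat5b, a mediator of cytokine and growth hormone signals, had the lower mean in KO. The study names Stat5b mRNA from these same libraries, so its direction here is not independent evidence. The study also reports less Stat5b protein in KO by Western blot of M1 cultures, which these libraries do not measure. Stat5b measured 18.8, 32.2, 14.0, 28.7, 16.9 and 14.2 TPM in the WT libraries of litters 1 to 6. In the KO libraries of the same litters it measured 19.3, 20.4, 11.7, 23.9, 14.2 and 11.7 TPM. KO was lower than its littermate in litters 2 to 6 and slightly higher in litter 1, and the difference was widest in litter 2. Mean levels were 16.9 ± 5.06 TPM in KO and 20.8 ± 7.76 TPM in WT (SD, n = 6). The within-litter log2 ratio was -0.27 (limma SE 0.095, 95% confidence interval -0.49 to -0.05, unadjusted p = 0.0227, adjusted p = 0.603), which is 0.828 times the WT level. The exact permutation p was 0.0625. Without litter 6 the ratio was -0.27, and without litter 2 it was -0.20 with an unadjusted limma p of 0.0566. Without litter 4 the unadjusted p was 0.0522.

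The 2 Stat5b transcripts of the table did not share the pattern of litter 1. ENSMUST00000004143, which carried 96.0% of the gene's TPM, was lower in KO in 6 of 6 litters, with 15.8 against 18.8 TPM in litter 1, 18.9 against 30.7 in litter 2, 11.7 against 14.0 in litter 3, 22.6 against 28.0 in litter 4, 14.2 against 16.9 in litter 5 and 11.7 against 13.7 in litter 6. Its log2 ratio was -0.32 (limma SE 0.088, 95% confidence interval -0.53 to -0.12, unadjusted p = 0.00772, adjusted p = 0.685 over 10085 transcripts), with an exact permutation p of 0.0312, and -0.34 without litter 6. Of its litters, 5 lay between -0.30 and -0.22 and litter 2 at -0.69. If the labels of litter 6 are exchanged, KO was lower in every litter but that one and the exact p would rise. Of all transcripts, 3.6% had an unadjusted p under 0.05 in that direction, 2.24% were lower in KO in 6 of 6 litters and 0% passed adjustment. ENSMUST00000107358, which starts at a different first exon, was listed at 0 in 6 of 12 libraries and at 3.55 TPM in KO1 against 0 in WT1, which is what turned litter 1 of the gene sum. The 2 transcripts share 93.5% of the 75-base windows of ENSMUST00000004143, so their division within the gene rests on few distinguishing bases.

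Stat5a, the close copy of Stat5b, had a ratio of the same size with wider spread. The lowest, median and highest levels were 15.6, 33.7 and 55.9 TPM in WT and 19.7, 26.4 and 43.6 TPM in KO. KO was the lower of the littermates in 5 litters, by 0.20 to 0.55 on the log2 scale, and the higher by 0.33 in litter 3, where WT3 had the lowest Stat5a of all 12 libraries. The mean ratio was -0.26 (limma SE 0.12, 95% confidence interval -0.54 to 0.01, unadjusted p = 0.0579, adjusted p = 0.603), with an exact permutation p of 0.0938. It was -0.23 without litter 6 and -0.38 without litter 3 (unadjusted p = 0.00149, adjusted p = 0.515). Of its 2 transcripts, ENSMUST00000107356 held 91.6% of the TPM and had a log2 ratio of -0.16 ± 0.59 (SD over 6 litters, exact p = 0.594). Without litter 3 that ratio was -0.39, with an unadjusted limma p of 0.00572 and an adjusted limma p of 0.611. Without litter 4 it was -0.10, without litter 5 -0.078, without litter 6 -0.082 and with the covariate of Y-linked expression -0.057. ENSMUST00000004145 ranged from 0 to 6.53 TPM, with a ratio of -1.07 ± 1.82 (exact p = 0.312). Its ratio was -0.55 without litter 3, -0.70 without litter 1, -1.44 without litter 6 and -1.79 with a pseudocount of 0.1. In litter 3 the larger transcript stood at 19.7 TPM in KO and 9.66 in WT, while the smaller stood at 0 in KO and 5.92 in WT.

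Stat5a exceeded Stat5b in every library, and the ratio between them did not separate the genotypes. The log2 ratio of Stat5a to Stat5b was 0.79 ± 0.16 in KO and 0.78 ± 0.32 in WT (SD, n = 6). It was higher in KO in litters 2 and 3 and lower in the other 4. The difference was 0.01 ± 0.34 (exact permutation p = 0.938). WT3 stood apart from the other WT libraries at 0.15.

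**Figure D2:**
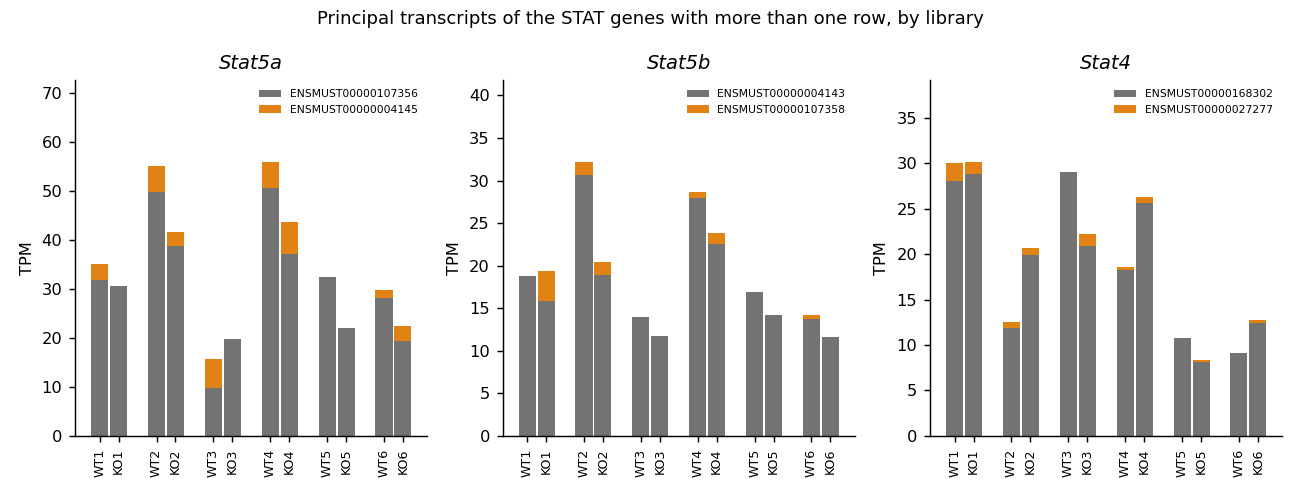
TPM of the single transcripts of Stat5a, Stat5b and Stat4 in each library, stacked so that a bar's height is the level of the gene. Grey is the larger transcript and orange the smaller, which reaches 5.92 TPM in WT3 for Stat5a and 3.55 TPM in KO1 for Stat5b.

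Stat2, the STAT of type I interferon signalling, had the lower mean in KO. Its lowest, median and highest levels were 119.9, 147 and 190.2 TPM in WT and 105, 135 and 143 TPM in KO. The litter ratios were -0.05, -0.50, -0.20, -0.13, 0.04 and -0.29 on the log2 scale for litters 1 to 6, so that KO was lower in 5 litters and litter 2 lay farthest from 0. The mean ratio was -0.19 (limma SE 0.079, 95% confidence interval -0.37 to -0.0049, unadjusted p = 0.0455, adjusted p = 0.603), with an exact permutation p of 0.0625. Without litter 6 it was -0.17 (unadjusted p = 0.111) and without litter 2 it was -0.13 (unadjusted p = 0.11). Of the limma fits that leave out a litter, only that without litter 5 kept an unadjusted limma p under 0.05 (0.0258). The unadjusted limma p of Stat2 was 0.0741 with a covariate of Y-linked expression, which stands in for sex, and 0.0823 without the trend of the variance on abundance.

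Stat3, the STAT of IL-6 and IL-10, was lower in KO in 6 of 6 litters by a small amount. Its lowest, median and highest levels were 136, 222 and 317 TPM in WT and 133, 190.3 and 282 TPM in KO. Litters 2 and 3 differed by 0.27 and 0.43 on the log2 scale, and the other 4 by 0.03 to 0.09. Litter 6 stood at -0.036, and if its labels are exchanged KO was lower in every litter but that one and the exact p would rise. Of all genes, 2.31% were lower in KO in 6 of 6 litters. The mean ratio was -0.15 (limma SE 0.071, 95% confidence interval -0.32 to 0.01, unadjusted p = 0.067, adjusted p = 0.603), with an exact permutation p of 0.0312. It was -0.17 without litter 6 and -0.10 without litter 3.

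Stat4, which answers IL-12, had the widest interval of the 6 members. Its lowest, median and highest levels were 9.11, 15.6 and 30.0 TPM in WT and 8.39, 21.5 and 30.2 TPM in KO. KO was the higher by 0.70, 0.49 and 0.46 in litters 2, 4 and 6, level with WT in litter 1 (0.01), and the lower in litters 3 and 5. The mean ratio was 0.16 (limma SE 0.16, 95% confidence interval -0.23 to 0.54, adjusted p = 0.778), with an exact permutation p of 0.406. It was 0.046 without litter 2, 0.089 without litter 4, 0.095 without litter 6, 0.26 without litter 3 and 0.25 without litter 5. The transcript ENSMUST00000168302 held 96.6% of its TPM. The T and NK cell markers, whose cells are known for Stat4, summed to 0 to 3.32 TPM in KO and 0.31 to 2.69 TPM in WT, lower in KO in 5 of 6 litters. The dendritic cell markers summed to 44.4 to 122 TPM in KO and 30.4 to 93.8 TPM in WT, higher in KO in 5 of 6 litters. Only 3 of the 7 averaged 1 TPM or more, namely Ccr7 (47.6 TPM), Xcr1 (13.3 TPM) and Clec9a (1.67 TPM). Flt3 averaged 0.028 TPM and Zbtb46 0.17 TPM, and Cd209a and Siglech were at 0 in all libraries. Ccr7 is also in the M1 gene set of the study, so the sum does not measure dendritic cells alone. The part of either marker list in the Stat4 values was not tested.

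Stat6, the STAT of IL-4 and IL-13, had nearly the same level in littermates. Its lowest, median and highest levels were 48.3, 63.6 and 78.1 TPM in WT and 52.3, 63.8 and 77.5 TPM in KO. The litter ratios lay between -0.05 and 0.11 on the log2 scale. The mean ratio was 0.01 (limma SE 0.054, adjusted p = 0.971), with a 95% confidence interval of -0.12 to 0.13, which is narrower than that of any other member. Without litter 6 the mean ratio was 0.006.

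**Figure D3:**
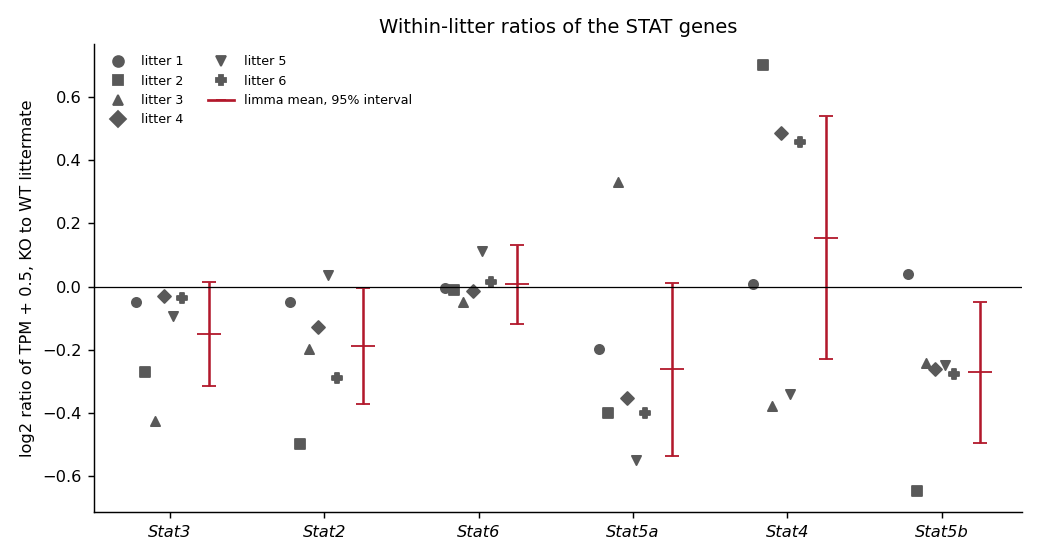
Log2 ratio of TPM + 0.5 of the KO library to its WT littermate for each STAT gene (grey symbols, 1 per litter), with the limma mean and its 95% confidence interval in red. The intervals of Stat5b and Stat2 end below 0 and those of the other 4 genes include 0.

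Differences between members were tested on the same within-litter ratios, over 15 pairs, a comparison chosen after the values had been seen. Stat2 was lower than Stat6 in its ratio by 0.20 ± 0.17 and Stat3 by 0.16 ± 0.14 (SD over 6 litters), each in 6 of 6 litters (exact permutation p = 0.0312, adjusted p = 0.234 over the 15 pairs). Stat5b was lower than Stat6 by 0.28 ± 0.22, in 5 of 6 litters (exact p = 0.0625, adjusted p = 0.312). Without litter 6 these 3 differences were -0.17, -0.18 and -0.28. No pair passed adjustment, and with 6 litters the smallest unadjusted p is 0.0312. Across litters the ratios of Stat2 and Stat5b had the highest correlation of the 15 pairs (Pearson r = 0.80, exact permutation p = 0.0736, adjusted p = 0.611; Spearman rho = 0.71, exact p = 0.136, adjusted p = 0.681). It was 0.79 without litters 2 and 5, the farthest from the median of Stat2.

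**Figure D4:**
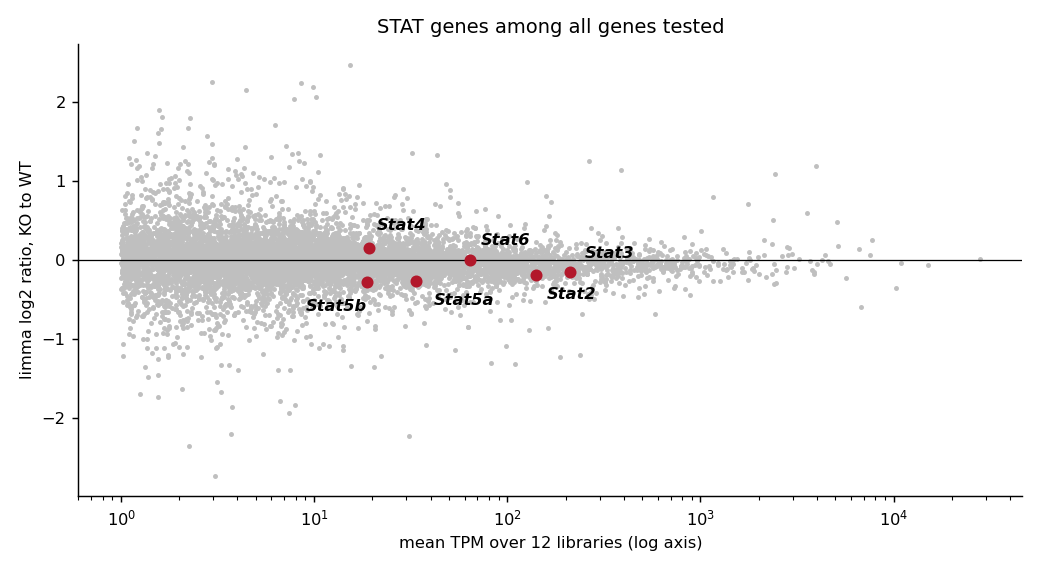
Mean TPM over the 12 libraries (log axis) against the limma log2 ratio of KO to WT for the 8780 genes tested (grey), with the 6 STAT genes in red. All 6 lie within 0.28 of 0 on the log2 scale, inside the cloud of genes of like abundance.

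The Janus kinases and receptor subunits that feed the STATs held 37 genes, of which 27 averaged 1 TPM or more and were tested, and 0 passed an adjusted p of 0.05. Before adjustment 3 were lower in KO (11.1%, against 4.38% of all genes) and 2 higher (7.41%, against 3.83%), with a median log2 ratio of -0.10 against -0.00068 over all genes. Leaving out single litters gave 2 to 5 lower and 0 to 3 higher, with 0 higher without litter 1, and the median was -0.034 without litter 2, -0.034 without litter 4 and -0.13 without litter 6, where 4 were lower and 1 higher. Ifngr2, the signalling chain of the IFN-γ receptor, averaged 97.9 ± 16.3 TPM in KO and 112 ± 18.9 TPM in WT, lower in 6 of 6 litters (log2 ratio -0.20, limma SE 0.058, adjusted p = 0.603). Jak3, the kinase of the common γ chain, averaged 5.89 ± 2.27 and 8.42 ± 2.77 TPM, also lower in 6 of 6 litters (-0.51, SE 0.16, adjusted p = 0.603). Il4ra, the receptor chain upstream of STAT6, averaged 17.0 ± 5.89 and 29.7 ± 20.6 TPM, lower in 5 of 6 litters (-0.59, SE 0.22, adjusted p = 0.603). Il3ra, the IL-3 receptor chain upstream of STAT5, was higher in KO in 6 of 6 litters, as were 2.51% of all genes (15.1 ± 3.62 against 10.3 ± 5.20 TPM, log2 ratio 0.67, SE 0.23, adjusted p = 0.603). The other higher gene was the Janus kinase Tyk2, named after its value was seen and given for all litters only. It averaged 5.49 TPM over the 12 libraries and had the widest ratio of the list (log2 ratio 1.03, SE 0.40, limma adjusted p = 0.603). The most abundant genes of the list were Il2rg, the common γ chain (639.8 TPM over the 12 libraries, log2 ratio -0.10), and Jak2 (218 TPM, 0.02). Without litter 6 the ratios were -0.22 for Ifngr2, -0.55 for Jak3, -0.74 for Il4ra, 0.78 for Il3ra, -0.098 for Il2rg and -0.03 for Jak2, and without litter 2 that of Il4ra was -0.39. Without litter 3 that of Il3ra was 0.45, and that of Jak2, close to 0 throughout, ran from -0.03 to 0.044 over the litters left out.

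Of 19 cytokines that act through STATs, 14 were tested, 0 passed adjustment, and 11 had the higher mean in KO, against 49.8% of all genes, with a median log2 ratio of 0.33. Before adjustment 2 of 14 were higher in KO (14.3%, against 3.83% of all genes) and 0 lower. Il12b, which encodes the p40 chain of IL-12, the ligand upstream of STAT4, and of IL-23, reached from 405 to 8894 TPM. It was higher in KO in 6 of 6 litters (5038 ± 3315 against 2908 ± 3407 TPM, log2 ratio 1.19, SE 0.47, adjusted p = 0.603), by 3.40 in litter 2 and 2.43 in litter 4 but by 0.04 to 0.80 in the other 4. Il12a, which encodes the p35 chain of IL-12, was higher in KO in 5 of 6 litters at a low level (11.4 ± 14.0 against 5.70 ± 11.0 TPM, log2 ratio 2.24, SE 0.93, adjusted p = 0.603). Il27, which signals through STAT3 among others, was abundant in both groups (2364 ± 978 and 1904 ± 663 TPM, log2 ratio 0.26, SE 0.18), with KO higher in 3 litters and lower in 3. Litter 2 held the widest ratio of all 3 genes, and without it they were 0.75 for Il12b, 1.43 for Il12a and 0.079 for Il27. Without litter 6 they were 1.27, 1.90 and 0.34. The count of cytokines with an unadjusted limma p under 0.05 and a higher mean in KO fell to 0 without litter 2, without litter 4, without litter 6 and with a covariate of Y-linked expression, and was 3 without litter 1 and 4 without litter 3. The median was 0.17 without litter 2, 0.21 without litter 4, 0.50 without litter 3, 0.51 without litter 5 and 0.40 without litter 6.

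Neither the inhibitors of STAT signalling nor the cofactors held a gene with an unadjusted limma p under 0.05 (0 of 16 and 0 of 11 tested). This held in most fits, but 1 inhibitor was lower without litter 4 and with no filter on low values, 1 cofactor was higher without litter 3 and without litter 5, and 1 was lower with the most abundant transcript alone. Their median log2 ratios were -0.01 and 0.05. The median of the cofactors had no stable sign, at -0.13 with a pseudocount of 0.1, -0.064 without litter 2, -0.053 without litter 3 and 0.041 without litter 6, and that of the inhibitors was -0.064 without litter 4, -0.059 without litter 1 and -0.052 without litter 6. Usp18, which dampens type I interferon receptor signalling, was the most abundant inhibitor, with 505 ± 124 TPM in KO and 583 ± 132 TPM in WT (log2 ratio -0.21, SE 0.11, adjusted p = 0.612). Socs3, the feedback inhibitor of STAT3, followed with 432 ± 88.0 and 469.9 ± 86.0 TPM (-0.12, SE 0.098, adjusted p = 0.708). Among cofactors the most abundant were Kpna3, an importin α (229 TPM over the 12 libraries, 0.05), and Nmi, which binds STATs (104 TPM, -0.19). Without litter 6 the ratios were -0.14 for Usp18, -0.15 for Socs3, 0.095 for Kpna3 and -0.19 for Nmi, and without litter 2 that of Nmi was -0.064. Without litter 3 the ratios were -0.02 for Socs3, -0.024 for Kpna3 and -0.29 for Nmi.

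Targets of STAT2, the interferon-stimulated genes of the list, had mostly lower means in KO. Of 23 tested, 22 had the lower mean in KO, against 50.2% of all genes, and the median log2 ratio was -0.28. Before adjustment 8 of 23 (34.8%, against 4.38% of all genes) were lower in KO and 0 higher, and 0 passed an adjusted p of 0.05. Oas1a, a sensor of double-stranded RNA, averaged 317 ± 85.2 TPM in KO and 374 ± 76.8 TPM in WT (log2 ratio -0.26, SE 0.093), and Rtp4, an interferon-induced regulator, 218 ± 32.3 and 267 ± 41.6 TPM (-0.28, SE 0.11). Ddx58, which encodes the RNA sensor RIG-I, was lower in KO in 6 of 6 litters (58.4 ± 21.7 against 72.2 ± 27.2 TPM, -0.28, SE 0.11), and Cmpk2, a nucleotide kinase, in 5 of 6 (218 ± 79.4 against 309 ± 118 TPM, -0.49, SE 0.19). Isg15, a ubiquitin-like protein, was the most abundant (2178 ± 674 and 2621 ± 535 TPM, -0.30, SE 0.12), followed by Bst2 (1070.2 ± 440.3 and 1244 ± 351 TPM, -0.27, SE 0.12). The count of 8 rested on single litters, as it was 2 without litter 2, 1 without litter 6, 5 without litter 4 and 12 without litter 5, while 21 to 22 of the 23 stayed below 0 in each of these. The median was -0.19 without litter 2 and -0.24 without litter 6, where Oas1a stood at -0.25, Rtp4 at -0.23, Ddx58 at -0.27, Cmpk2 at -0.44, Isg15 at -0.24 and Bst2 at -0.23. Without litter 2 the same genes stood at -0.19, -0.21, -0.18, -0.31, -0.19 and -0.19. In litter 6 itself they stood at -0.32, -0.54, -0.37, -0.74, -0.55 and -0.44, and all of these turn positive if its labels are exchanged. The count of lower targets was 4 without the trend of the variance on abundance and 2 with a covariate of Y-linked expression in place of sex. Many of these genes share regulators, and the study names interferon responses from these same libraries, so their direction is not independent evidence.

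Of 13 STAT3 targets tested, 10 had the lower mean in KO and 4 an unadjusted limma p under 0.05 in that direction (30.8%, against 4.38% of all genes), with a median log2 ratio of -0.20, and 0 passed adjustment. They were Fos, an immediate early factor (6.37 ± 1.67 against 9.84 ± 4.20 TPM, -0.54, SE 0.15), Bcl3, an NF-κB cofactor (56.1 ± 20.1 against 68.1 ± 18.9 TPM, -0.32, SE 0.12), Il1rn, the IL-1 receptor antagonist (362 ± 95.8 against 427 ± 132 TPM, -0.23, SE 0.086), and Il4ra, each lower in KO in 5 of 6 litters. The STAT3 count was 1 without litter 2, 2 without litter 4 and 4 without litter 6, where the median was -0.28 and the ratios were -0.67 for Fos, -0.33 for Bcl3, -0.30 for Il1rn and -0.74 for Il4ra. Of 12 STAT5 targets, Ccnd3, a D-type cyclin, was the only one with an unadjusted p under 0.05 (25.1 ± 20.9 against 31.2 ± 20.8 TPM, -0.42, SE 0.15, adjusted p = 0.603), 6 had the lower mean in KO, and the most abundant, Socs3 and Pim1, had log2 ratios of -0.12 and 0.06. Without litter 6 Ccnd3 stood at -0.51 and Pim1 at 0.073, and 1 STAT5 target was lower with a list median of -0.055, against -0.045 over all litters, -0.11 without litter 1 and -0.091 without litter 2. The ratio of Pim1 ran from -0.0032 without litter 2 to 0.11 without litter 5. Without litter 3, 3 STAT5 targets were lower and 1 higher with a median of 0.032, and without litter 2 none was. Of 9 STAT6 targets, Il4ra was lower in KO, and Ccl22, a chemokine, was higher in 5 of 6 litters (142 ± 81.9 against 103 ± 50.3 TPM, 0.41, SE 0.16, adjusted p = 0.603), while Tgm2 stood at -0.06. Without litter 6 Ccl22 stood at 0.38, Tgm2 at -0.05 and the median of the STAT6 targets at -0.05, against 0.03 over all litters, -0.12 without litter 2 and 0.16 without litter 3. Of the fits that leave out 1 litter, Ccl22 kept an unadjusted limma p under 0.05 only in that without litter 3, and the count of higher STAT6 targets was 0 in each of the other 5 and with the covariate of Y-linked expression. The count of lower ones was 0 without litter 2 and without litter 4, 2 without litter 1 and 1 without litter 6. The ratio of Tgm2 ran from -0.12 without litter 2 to 0.011 without litter 3. Of 6 STAT4 targets, 6 had the lower mean in KO, against 50.2% of all genes, with a median of -0.15, and 0 an unadjusted p under 0.05. Without litter 5 and with the covariate of Y-linked expression 1 was lower at that p, and with no filter on low values 1 of 9 was higher. The most abundant, Irf1 and Furin, stood at -0.05 and -0.01, and Hlx, named after its value was seen, lay lowest at -0.54 (SE 0.25, adjusted p = 0.603). Without litter 6 they stood at -0.0059 for Irf1, -0.045 for Furin and -0.63 for Hlx, and 0 of the 6 had an unadjusted p under 0.05. Without litter 3 Hlx stood at -0.28, and Furin, close to 0, ran from -0.068 to 0.092 over the litters left out. The median was -0.28 without litter 6, -0.032 without litter 2 (5 of 7 below 0) and -0.067 without litter 4 (3 of 5 below 0). Over all 15 alternatives the median ran from -0.28 to -0.032 for the STAT4 targets, -0.12 to 0.16 for the STAT6 targets, -0.11 to 0.032 for the STAT5 targets, -0.28 to -0.15 for the STAT3 targets, -0.33 to -0.19 for the STAT2 targets, -0.13 to 0.071 for the cofactors, -0.064 to 0.0011 for the inhibitors, 0.17 to 0.51 for the cytokines and -0.13 to -0.033 for the kinases and receptors. Some genes stand in more than 1 list, among them Il4ra, Socs3 and Pim1, and are counted in each.

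**Figure D5:**
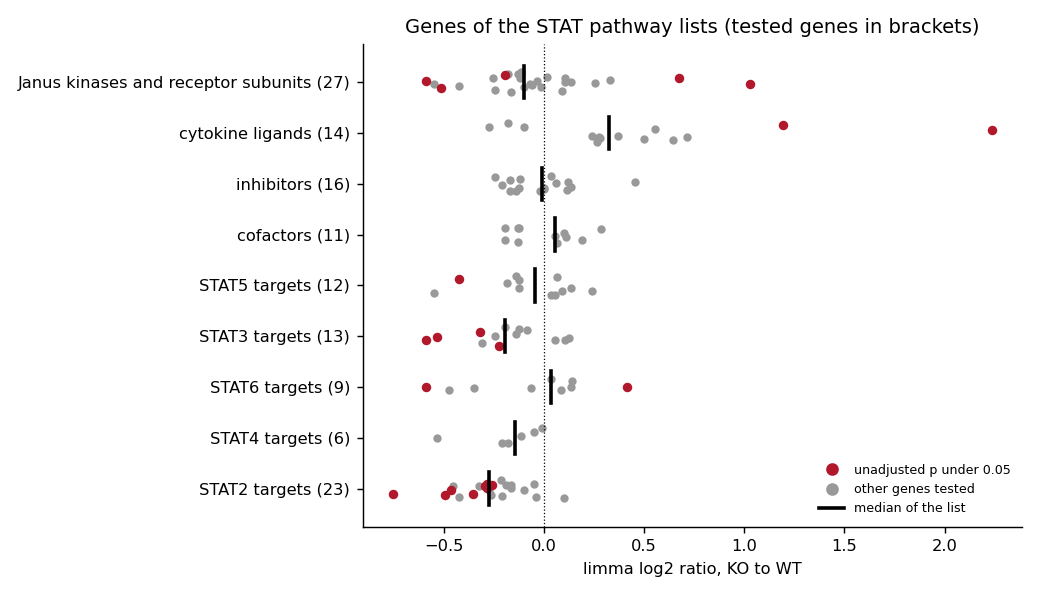
Limma log2 ratio of KO to WT for each tested gene of the 9 STAT pathway lists, with genes of unadjusted p under 0.05 in red, other genes in grey and the median of a list as a black bar. The STAT2 targets lie almost all below 0 with a median of -0.28, and the cytokine ligands mostly above 0 with a median of 0.33.

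The genes most like each STAT in level over the 12 libraries were found among 5775 genes that averaged 5 TPM or more, and since the 12 libraries share litters these correlations are descriptions without a test. Stat5b was closest to Gm4841 (Pearson r = 0.98, Spearman rho = 0.99), then to Tbc1d2b (r = 0.94) and to Pias1 (r = 0.94), an inhibitor of STAT signalling. Stat3 was closest to Gpr18 (r = 0.98), Napsa (r = 0.97) and Itgb7 (r = 0.96), and Stat2 to Lpxn (r = 0.95), Cnppd1 and Pip4k2c (r = 0.92 each). Stat4 was closest to Clic5, Zmiz1 and Ccrl2 (r = 0.94 each), Stat5a to Golga3 (r = 0.94), Ogfrl1 and Vma21 (r = 0.92 each), and Stat6 to Tti1 (r = 0.94), Top3b and Gbp10 (r = 0.93 each).

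The genes next to the members on chromosomes 10 and 11 had no limma adjusted p under 0.05. Beside Stat2, Apof averaged 0.017 TPM and was not tested, and Il23a, on the other side, averaged 2.89 TPM with a log2 ratio of 0.37 (SE 0.49). Ghdc, which follows Stat5b, had -0.16 (SE 0.29), and Cavin1, beyond Stat3, had 0.46 (SE 0.29). Beside Stat6, Lrp1 had 0.10 (SE 0.17) and Nab2, whose end overlaps Stat6 by 40 exon bases on the opposite strand, had -0.05 (SE 0.11).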

How the data were processed

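RNA sequencing of polyA RNA from 12 cultures of M1 BM-Mɸs was analysed. Genotype and replicate number were taken from the labels, and the replicate number was read as the litter. The reads were single-end, 75 bases, from an Illumina stranded mRNA kit. The authors pseudoaligned them with kallisto (submitters' notes: CASAVA, kallisto, sleuth and mm10) and deposited TPM per principal transcript, so that a library's values sum to a part of its total. The version of kallisto and the release of the transcriptome are not given in the sources used here. Columns of the authors' sleuth comparison (p, q, effect and mean abundance) and their log2 ratios were not used. Of 29213 lines, 405 repeated a transcript and were counted once. The sex of the mice, for which the authors adjusted, is not on the labels.

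For each gene the TPM of its transcripts were added up. Log2(TPM + 0.5) of the 8780 genes that averaged 1 TPM or more over the libraries was fitted with limma 3.58.1 (R 4.3.3) with litter as a block and a trend on abundance. Fold changes are on the log2(TPM + 0.5) scale, which understates changes of low genes. Adjusted p are Benjamini-Hochberg values over all genes or over 10085 transcripts. Single values were tested by two-sided exact permutation over 64 swaps within litters (smallest p 0.0312). On simulated data for all 8780 genes, the fit recovered 76% of 100 planted log2 changes of 1 and 89% of 100 of 2. It also called 9 of 8580 unchanged genes, 5.17% of its calls. The planted changes are larger than the ratio of any STAT gene here, so recovery at the size of those ratios is unknown. Littermates correlated at 0.273 to 0.774 after gene means were removed. The labels give each pair a shared batch letter, which was taken here as the litter of the study. Alternatives were other pseudocounts and filters on low values, rescaling by median ratios, no trend, no litter block, a covariate of Y-linked expression, the most abundant transcript alone, and each litter left out. The study gives an approximate depth per sample, the depth of each library is unknown, and precision rests on the spread between litters.

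Positions, exons and transcripts were those of GENCODE M21 (GRCm38), and promoters those of RefSeq (GRCm38.p6). The members and all lists were chosen with earlier results of these data known. The genes named are the 6 members, in each list up to 4 genes with the smallest unadjusted limma p under 0.05 and the 2 with the highest level, the 3 genes most like each member, the genes next to a member, and Erbb4 and Lyz2. Neighbours are given for members on chromosomes 10 and 11. Neutrophil markers summed to 37.6 to 360.2 TPM, stromal markers to 9.28 to 103 TPM, B cell markers to at most 2.03 TPM and erythroid markers to at most 0.98 TPM. Tables and permutations ran in Python 3.11.15 (scipy 1.17.1, pandas 2.3.3, numpy 2.4.6), and figures in matplotlib 3.10.9.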

Additional observations from a re-analysis of the deposited data

Results flagged for a closer look

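The log2 ratio of Stat5a to Stat5b in WT3 was 0.15, and the other 5 WT libraries lay between 0.76 and 1.04. The gap of WT3 to its nearest neighbour was 0.69 of the range of the 6 WT libraries, above Dixon's 95% critical value for 6 samples. WT3 also held the lowest Stat5a level of the 12 libraries, 15.6 TPM. This was 1 of 21 groups of 6 values tested in this way, and chance gives about 1 in 20.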

How the results depend on the processing

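The directions of Stat2, Stat3, Stat4, Stat5a and Stat5b held in all 15 alternatives, and their adjusted p stayed at or above 0.499. Leaving out 1 litter at a time gave log2 ratios of -0.23 to -0.13 for Stat2, -0.18 to -0.096 for Stat3, 0.046 to 0.26 for Stat4, -0.38 to -0.205 for Stat5a, -0.33 to -0.20 for Stat5b, -0.013 to 0.019 for Stat6 and -0.10 to 0.072 for the Stat5a to Stat5b ratio. The sign of Stat6, close to 0 throughout, turned to -0.0024 with rescaling by median ratios (-0.00101 for its transcript) and to -0.013 without litter 5. The Stat5a to Stat5b ratio turned to -0.037 without litter 2 and -0.10 without litter 3. Genes past an adjusted p of 0.05 numbered 0 to 1 with a litter left out (1 without litter 3, the immunoglobulin gene Igkv1-88, adjusted p = 0.049, outside the naming rule and named after its value was seen), and 0 otherwise. With no replicate block, where pairing of littermates is ignored, 75 genes in place of 721 had an unadjusted p under 0.05, none of them a STAT gene, and the unadjusted p of Stat5b was 0.307. The highest transcript alone gave -0.32 for Stat5b and -0.16 for Stat5a. The study gives only an approximate depth per sample and that of each library is unknown, so limits of detection for Erbb4 and the smaller transcripts are not given.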
